A study of Mus musculus with 12 samples.

Results

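Naive T cell and quiescence genes were followed in RNASeq of splenic T cells as a set of 9 genes, Ccr7, S1pr1, Il7r, Foxo1, Klf2, Tcf7, Lef1, Satb1 and Bach2. They, and the other gene lists used below, were chosen by name with earlier results of these data known. Their rows were found by matching the Ensembl identifiers of the count table to symbols in the annotation of GRCm38. All 9 were found among 49315 genes, and all 9 passed the filter on low counts in each of the 5 comparisons. The cells came from spleens of male mice by magnetic negative selection, in which other cells are tagged and removed. The mice were wild-type (WT) or lacked miR-214 (miR-214-/-), a deletion present in every cell of the animal and not in T cells alone. Each mouse carried an osmotic minipump for 14 days, which delivered either angiotensin II (Ang II, 490 ng/kg per day) or its vehicle (sham). There were 4 groups of 3 mice, WT sham, WT Ang II, miR-214-/- sham and miR-214-/- Ang II, and 1 library per mouse.

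Naive T cells circulate between blood and lymphoid organs in a resting state, and that state is kept up actively by a network of transcription factors and receptors. CCR7 and S1PR1 guide entry into and exit from lymph nodes, and the interleukin 7 receptor passes the survival signal on which resting T cells depend. FOXO1 drives KLF2, the interleukin 7 receptor and the lymph node homing receptors, KLF2 in turn drives S1PR1, and activation through the T cell receptor switches this programme off.

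Sequences of the miRNA that the mice lack, and of the places in the 9 genes that its seed could pair with, are shown first because the genotype comparisons turn on it. The mature sequences were taken from RefSeq (GRCm38), with the seed, bases 2 to 8, in capitals. The arms lie on the plus strand at chr1:162223438-162223459 (miR-214-3p) and chr1:162223397-162223418 (miR-214-5p).
miR-214-3p: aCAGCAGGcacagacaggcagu
miR-214-5p: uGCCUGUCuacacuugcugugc
The letters CCTGCTG pair with the seed of miR-214-3p, and they occur in the annotated 3′ UTRs of 3 of the 9 genes (33.3%) against 4261 of all 21037 genes with a 3′ UTR (20.3%). The matches are in capitals, each read along the gene's own strand.
Ccr7, chr11:99144335-99144341, minus strand: gagaaggtgacCCTGCTGgctgacagagg
Foxo1, chr3:52349170-52349176, plus strand: gcagtggtctaCCTGCTGaatgccactga
Il7r, chr15:9506633-9506639, minus strand: aattttgaatcCCTGCTGtgtataaccaa
Il7r, chr15:9506936-9506942, minus strand: accatgattttCCTGCTGctattatccat
The match in Foxo1 is the only one of these 4 that is followed by an A, a base that is known to favour recognition of a site. The letters GACAGGC, which pair with the seed of miR-214-5p, occur in the 3′ UTRs of Foxo1 and Tcf7, 2 of 9 genes (22.2%), against 9.16% of all genes. Long UTRs can hold more matches by length alone. The longest annotated 3′ UTR has 6240 bases in Foxo1, 5812 in Bach2, 3711 in Satb1 and 2569 in Il7r. The median over all genes is 960, and Ccr7, which holds a match, has 762. Bach2 and Satb1 held no match for either arm. The part of length in these shares was not tested. A match is a string of letters and not a shown binding site.

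The libraries held 21126874 to 29605988 counts each, and each of the 9 genes had between 2320 and 40055 counts in every library, so counting error is small beside the differences between mice. Values are given as CPM, counts brought to the same library total, with the totals first adjusted by TMM, a method that assumes most genes are alike between libraries. The deleted gene, Mir214, had 0 counts in all 12 libraries, WT included, where a count of 0 allows up to 3, so these libraries of polyadenylated RNA cannot check the genotype labels with it. All 12 genes of a T cell marker list were measured in all libraries, and their summed level was 3387 to 5929 CPM per library. Markers of other cells were present too, and those of red-cell precursors and neutrophils were higher in WT Ang II than in WT sham in every library. The red-cell precursor list (10 of 11 genes matched) summed to 294 to 485 CPM in WT sham, 1118 to 5355 in WT Ang II, 271 to 530.0 in miR-214-/- sham and 561 to 4386 in miR-214-/- Ang II. In the same order, the neutrophil list summed to 195 to 245, 1077 to 3258, 229.9 to 926 and 602 to 2979.6 CPM. Markers of macrophages and monocytes summed to 174 to 471 CPM in WT sham and 174 to 1148 in WT Ang II. B cell markers summed to 59.6 to 467 CPM and NK cell markers to 24.5 to 86.0 CPM over all libraries, with 1 of 5 NK genes, Klra8, at 0 in 7 libraries. In bulk samples, fewer cells of a type and less RNA per cell cannot be told apart.

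Levels of different genes were compared per length, as CPM per kb of annotated exon. In WT sham, Tcf7 stood highest at 569 ± 31.0 CPM per kb (SD, n = 3), followed by Klf2 at 338 ± 12.7, Ccr7 at 236 ± 12.6, Il7r at 191 ± 22.8 and S1pr1 at 176 ± 16.2. Lef1 (53.8 ± 5.60), Foxo1 (40.9 ± 3.63), Satb1 (32.3 ± 1.04) and Bach2 (15.6 ± 2.58) were lower. Only Il7r and S1pr1 were neighbours in this order whose libraries overlapped. Tcf7 stayed first and Bach2 last in all 4 groups. Il7r moved from the fourth place in WT sham to the third in miR-214-/- sham, at 253 ± 48.9 CPM per kb, where its libraries overlapped with those of Klf2 and of Ccr7. Exon lengths include rarely used exons (19027 bases for Satb1 against 1847 for Klf2), which lowers the values of genes with many annotated transcripts.

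All 9 genes fell in the WT libraries of splenic T cells after Ang II under TMM scaling. When the libraries were scaled to T cell markers, as given below, 1 of the 9 passed. The falls lay between 28.2% for Foxo1 and 45.1% for Klf2, and in each of the 9 genes every Ang II library was below every sham library. All 9 passed the quasi-likelihood test of edgeR at an adjusted p under 0.05, after Benjamini-Hochberg adjustment over 16012 genes. Of all genes tested, 7.06% passed as lower. Groups that did not overlap in this direction were seen in 22.0% of all genes tested. As the 9 genes were chosen with earlier results of these data known, both contrasts are descriptions. The median log2 fold change was -0.64 for the 9 genes and -0.02 for all genes. No fall reached a log2 fold change of -1, and 0.294% of genes passed as lower with a change of that size.

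**Figure D1:**
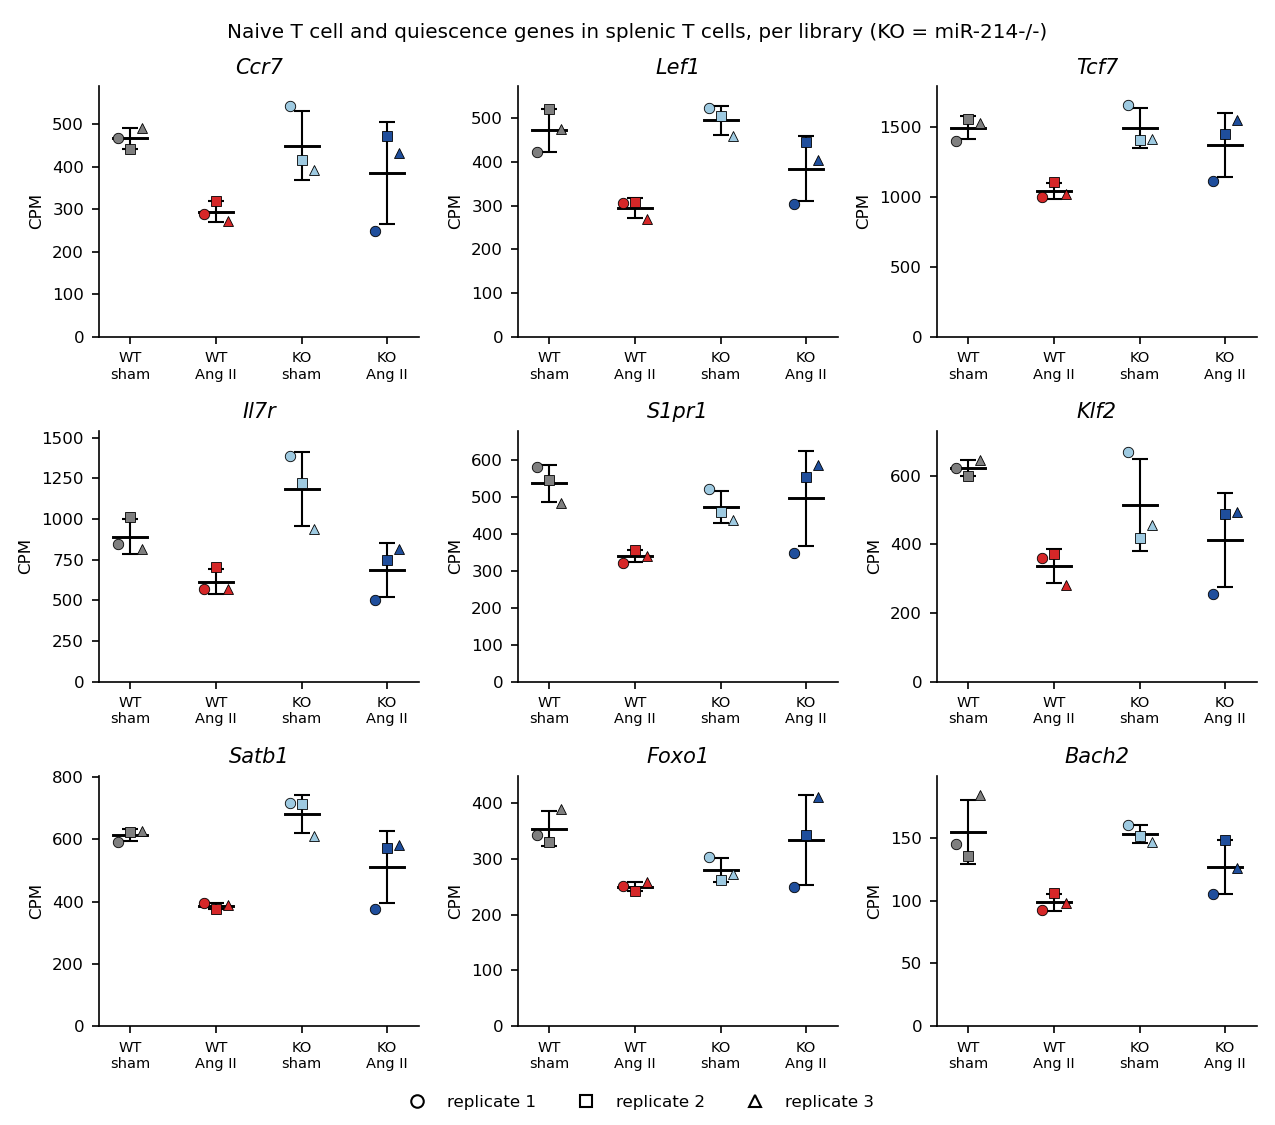
Level of each of the 9 genes in CPM (vertical axes, from 0) in the 12 libraries, by group. Symbols are single libraries, horizontal lines the means of 3 libraries and bars 1 SD. In WT the Ang II libraries lie below all sham libraries in every panel, whereas in miR-214-/- mice the groups overlap for 6 of 9 genes and Ang II replicate 1 is the lowest library throughout.

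The receptors for homing and survival came first. Ccr7 (ENSMUSG00000037944, chromosome 11, 99144196 to 99155077), which draws naive T cells into lymph nodes, measured 468, 442 and 491 CPM in the WT sham libraries and 289, 320.4 and 271 CPM in the WT Ang II libraries. The highest treated library was well below the lowest control, and the log2 fold change was -0.65 ± 0.08 (SE), with an adjusted p of 0.00403 (edgeR). S1pr1 (ENSMUSG00000045092, chromosome 3, 115710433 to 115715072), the receptor by which T cells leave lymphoid organs, measured 579.9, 546 and 483 CPM in sham and 322, 355 and 341 CPM after Ang II. Its 3 treated libraries were close together and apart from the controls, with a log2 fold change of -0.64 ± 0.09 and an adjusted p of 0.00671 (edgeR). Il7r (ENSMUSG00000003882, chromosome 15, 9505788 to 9530176), which encodes the ligand-binding chain of the interleukin 7 receptor, measured 847, 1013 and 815 CPM in sham and 572, 703 and 567 CPM after Ang II. The gap between the groups was the narrowest of the 3 receptors. The log2 fold change was -0.52 ± 0.12 and the adjusted p was 0.0290 (edgeR). This call was lost, at adjusted p between 0.0572 and 0.118, when WT sham replicate 1, WT sham replicate 2, WT Ang II replicate 1 or WT Ang II replicate 3 was left out, although the change stayed between -0.63 and -0.41.

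Among the transcription factors, Klf2 (ENSMUSG00000055148, chromosome 8, 72319033 to 72321656) fell most. It measured 624, 600.2 and 647 CPM in WT sham and 361, 371 and 281 CPM in WT Ang II. No other member showed a gap of this size relative to its level, and the log2 fold change was -0.86 ± 0.11 with an adjusted p of 0.00461 (edgeR). Foxo1 (ENSMUSG00000044167, chromosome 3, 52268336 to 52353221), the factor upstream of Klf2 and Il7r, measured 342, 330.4 and 389.7 CPM in sham and 251, 241 and 259 CPM after Ang II. This was the smallest fall of the 9, at -0.48 ± 0.08 on the log2 scale (adjusted p 0.0114, edgeR). The treated libraries differed by less than 1 sham SD, which was 31.4 CPM.

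Tcf7 (ENSMUSG00000000782, chromosome 11, 52252371 to 52283014) encodes TCF-1, which with LEF-1 keeps T cell identity and the capacity to self-renew. It measured 1400.1, 1552 and 1528 CPM in WT sham and 997, 1105 and 1016 CPM in WT Ang II. The groups were apart, with a log2 fold change of -0.50 ± 0.08 and an adjusted p of 0.0107 (edgeR). Lef1 (ENSMUSG00000027985, chromosome 3, 131110471 to 131224356) measured 422, 521 and 475 CPM in sham and 307, 308 and 269 CPM after Ang II, a log2 fold change of -0.66 ± 0.10 with an adjusted p of 0.00733 (edgeR). An antisense gene, Gm43352, overlaps exons of Lef1 and had 181 to 481 counts per library, against 6339 or more for Lef1 in WT. Since the strand setting of the counting is not given in the sources used here, reads of the overlap cannot be assigned with certainty.

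Satb1 (ENSMUSG00000023927, chromosome 17, 51736187 to 51833290), a chromatin organiser of T cells, had the tightest groups, at 591, 624 and 627 CPM in WT sham and 394, 375 and 388 CPM in WT Ang II. It had the smallest adjusted p of the 9 genes, 0.00264 (edgeR), at a log2 fold change of -0.65 ± 0.07. Bach2 (ENSMUSG00000040270, chromosome 4, 32238804 to 32586108), a repressor that restrains effector differentiation, was the least abundant member. It measured 145, 135 and 184 CPM in sham and 92.2, 106 and 98.3 CPM after Ang II (log2 fold change -0.62 ± 0.12, adjusted p 0.0151, edgeR). Without WT Ang II replicate 3, the calls of Tcf7 (adjusted p 0.0579), Bach2 (0.0653) and Il7r were lost and 6 of 9 genes passed, while 946 genes passed in the whole table instead of 3009. The other 6 genes passed in all 6 fits that left out 1 library.

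Further genes of the same programme fell in WT as well. Of 20 other naive and quiescence genes, 13 fell, 0 rose and 7 did not pass. Over all genes tested, 7.06% passed as lower. The median log2 fold change of the 20 was -0.49, close to the -0.50 of the 12 general T cell markers, of which 11 fell. Foxp1, a factor that enforces quiescence, fell from 335 ± 15.8 to 218 ± 8.64 CPM (SD, n = 3; log2 fold change -0.60, adjusted p 0.00270, edgeR). The antiproliferative genes Tob1 (-0.62, adjusted p 0.0110) and Btg1 (-0.58, adjusted p 0.0111) and the cytoskeletal gene Actn1 (-0.66, adjusted p 0.0117) fell as well. Of 20 activated and effector T cell genes, 2 rose, 0 fell and 18 did not pass, with a median of 0.01. Among all genes tested, 1878 of 16012 passed as higher, so 2 of 20 is near that share. Those that rose were Cd44, the adhesion receptor that marks antigen-experienced cells (105 ± 4.62 to 169 ± 20.7 CPM, log2 fold change 0.71, adjusted p 0.00763), and Tigit, an inhibitory receptor (0.63, adjusted p 0.0208). Markers of neutrophils and red-cell precursors were higher in the same libraries, and which cells carried the Cd44 reads was not tested. Of 11 immediate early genes, which respond within minutes to stimulation or handling, 3 fell, Junb (-0.97), Jun (-0.89) and Ier2 (-0.54), and 8 did not pass.

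The T cell marker list fell by nearly as much as the 9 genes did. In WT, 11 of its 12 genes fell, with a median log2 fold change of -0.50 and a range from -0.60 to -0.41. Its summed level was 4958, 5409 and 5929 CPM in sham and 4066, 3817 and 3387 CPM after Ang II, and the 9 genes summed to 5419.9, 5763 and 5639 CPM and to 3584, 3885 and 3489 CPM. The ratio of the members' sum to the T marker sum was 1.04 ± 0.08 in WT sham and 0.98 ± 0.08 in WT Ang II (SD, n = 3), and the libraries overlapped. Over the same groups, all 15 cell cycle genes rose (median log2 fold change 2.30), as did 6 of 10 red-cell precursor markers (median 3.51) and all 9 neutrophil markers (median 3.18), whereas 0 of 9 B cell, 0 of 8 macrophage and 0 of 3 tested NK cell markers passed. Within WT Ang II, the members' sum was 3584, 3885 and 3489 CPM in replicates 1, 2 and 3. In the same order, the red-cell sum was 5355, 2339 and 1118 CPM and the neutrophil sum 3258, 1077 and 1534 CPM. The cell cycle sum was 1920, 2375 and 2377 CPM. The part of other cells in the members' fall was not tested.

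**Figure D2:**
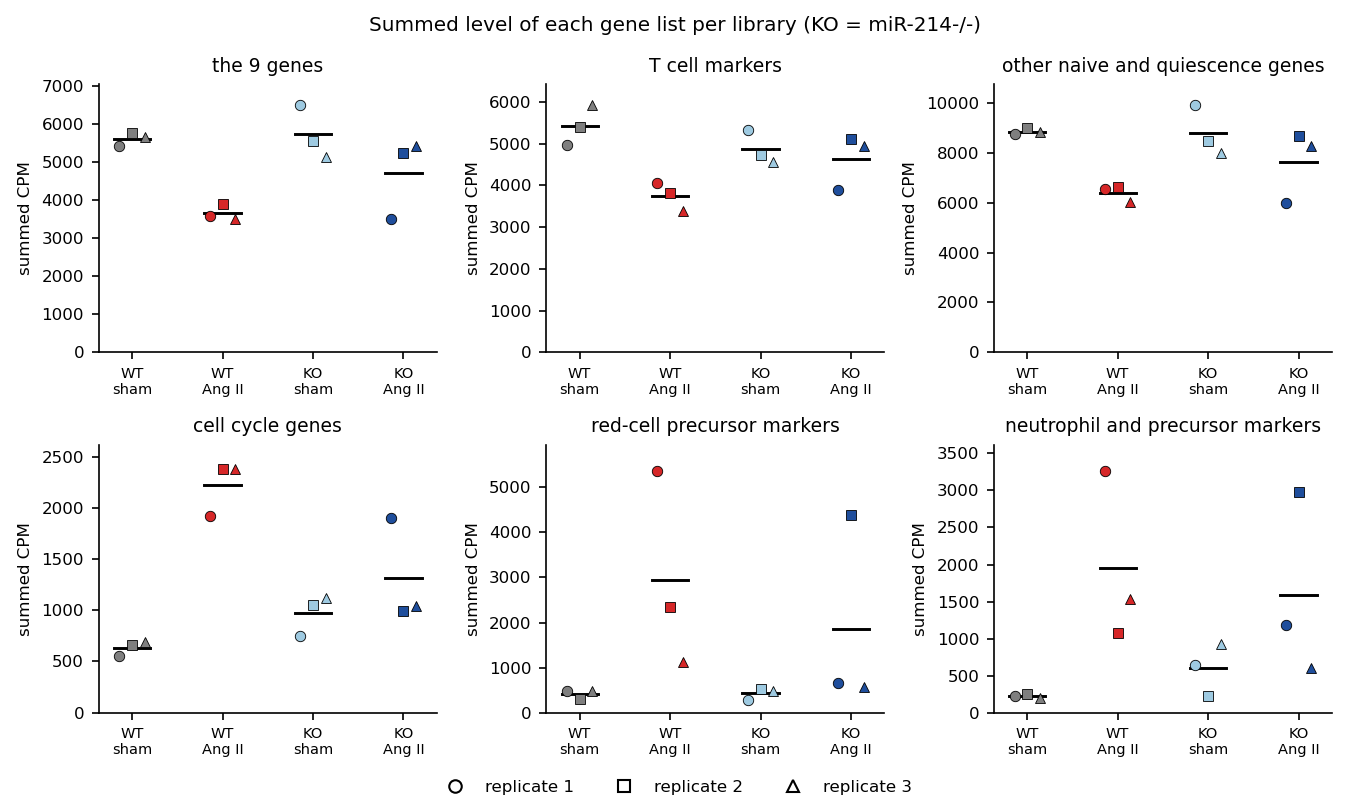
Summed CPM (vertical axes, from 0) of 6 gene lists in each of the 12 libraries, by group. Symbols are single libraries and lines the means of 3. The 9 genes, the T cell markers and the other naive and quiescence genes are lower in WT Ang II than in WT sham, where the cell cycle, red-cell precursor and neutrophil lists are higher.

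When the libraries were scaled to the T cell markers in place of TMM, the call was lost for 8 of 9 genes. Under this scaling the median of all genes moved from -0.02 to 0.49, and 7883 genes passed, of which 10 (0.0625%) were lower, in place of 1131 lower among 3009 under TMM. Klf2 was 1 of the 10, with a log2 fold change of -0.37, a 95% confidence interval from -0.60 to -0.14 and an adjusted p of 0.0169 (edgeR). The Klf2 call was lost without WT sham replicate 1 (-0.31, adjusted p 0.0587) and without WT Ang II replicate 3 (-0.32, adjusted p 0.0536). The other 8 lay between -0.16 for Lef1 (interval -0.38 to 0.06) and 0.03 for Foxo1 (interval -0.22 to 0.29). For Tcf7 the value was 0.01 (interval -0.24 to 0.25) and for Il7r -0.02 (interval -0.34 to 0.31). Relative to the T cell markers, therefore, a fall was measured for Klf2, and for the other 8 genes changes within these intervals could not be told from 0.

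**Figure D3:**
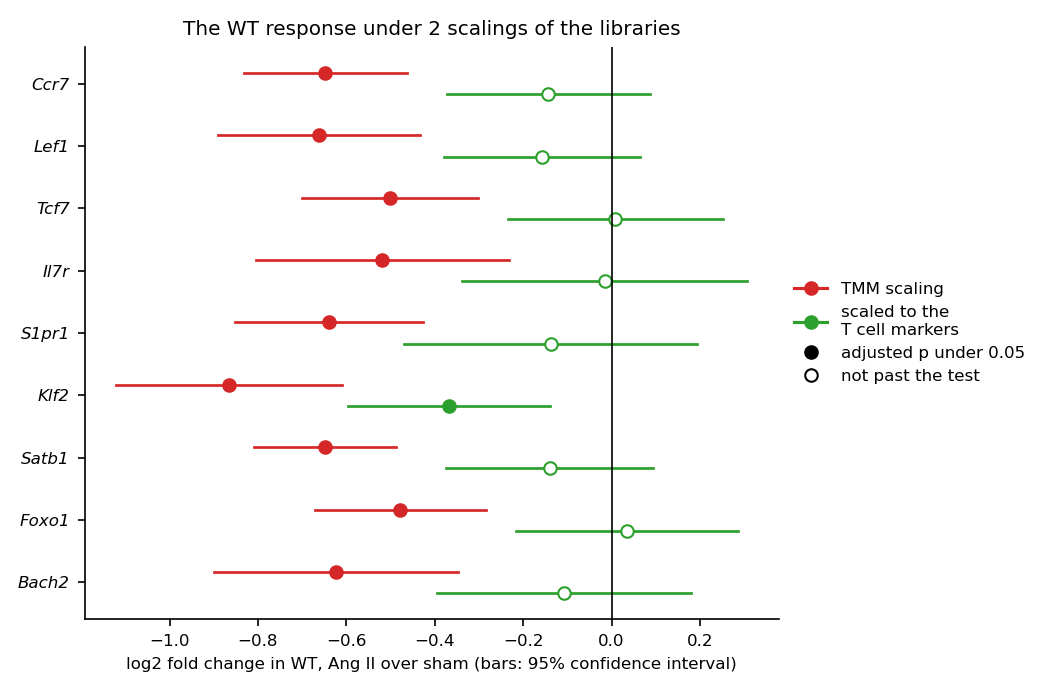
log2 fold change of each gene in WT, Ang II over sham (horizontal axis), with libraries scaled by TMM (red) or to the 12 T cell markers (green). Points are fitted values, bars 95% confidence intervals, and filled points passed at an adjusted p under 0.05. All 9 genes are filled under TMM, and Klf2 alone under the scaling to T cell markers.

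In miR-214-/- T cells none of the 9 genes passed the test for Ang II against sham, and neither did any other of 15937 genes by edgeR (0.0%). At an unadjusted p under 0.05 there were 1939 genes, and DESeq2 called 277, with 1 member, Il7r, among them. The members' log2 fold changes ran from -0.78 to 0.26, with a median of -0.27 against 0.03 for all genes. Il7r, Lef1 and Satb1 had every Ang II library below every sham library, a pattern found in 10.5% of all genes tested. No gene of the other lists passed in these mice, nor in the 3 comparisons that follow. The median log2 fold change in miR-214-/- was -0.21 for the other naive and quiescence genes, -0.05 for the T cell markers and 0.57 for the cell cycle genes.

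Il7r showed the largest difference of the 9 genes in these mice. It measured 1386, 1222 and 936 CPM in miR-214-/- sham and 499.9, 747 and 817 CPM in miR-214-/- Ang II. The groups did not overlap, and the log2 fold change was -0.78 ± 0.22, with an adjusted p of 0.303 by edgeR and 0.0131 by DESeq2. Lef1 measured 523, 505 and 458 CPM in sham and 303, 446 and 405 CPM after Ang II (log2 fold change -0.36, adjusted p 0.407, edgeR). Satb1 measured 718, 712 and 609.6 CPM and 378, 573 and 580.3 CPM (-0.41, adjusted p 0.418, edgeR). In both genes 2 of the treated libraries lay nearer to the controls, and replicate 1 lay far lower.

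The remaining receptors and factors overlapped between the miR-214-/- groups. Ccr7 measured 542, 416 and 391 CPM in sham and 249.9, 473 and 433 CPM after Ang II, and Klf2 measured 669.9, 420.1 and 457 CPM and 256, 489 and 496 CPM. Their log2 fold changes, -0.22 with a 95% interval from -0.80 to 0.36 and -0.32 with an interval from -0.99 to 0.36, leave room for falls as large as those in WT. S1pr1 measured 522, 458 and 438 CPM in sham and 348, 553 and 587 CPM after Ang II, with a log2 fold change of 0.07 and an interval from -0.39 to 0.54. Foxo1 measured 304, 262 and 273 CPM in sham and 249, 343 and 410.3 CPM after Ang II, the only member besides S1pr1 with a positive fitted change, 0.26 (interval -0.15 to 0.67). Tcf7 measured 1656, 1408 and 1412 CPM and 1114, 1449 and 1549 CPM (-0.12), and Bach2 160.4, 152 and 147 CPM and 105, 148 and 126 CPM (-0.27).

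One library stood apart within the treated miR-214-/- group. Replicate 1 was the lowest of the 6 miR-214-/- libraries for all 9 genes, at a summed 3503 CPM against 5222 and 5404 CPM in the other treated mice, within the range of the WT Ang II libraries (3489 to 3885 CPM). The same library had 1901 CPM of cell cycle genes against 995 and 1039, and 3880.5 CPM of T cell markers against 5108 and 4937. Its red-cell precursor sum was 655 CPM against 4386 and 561, so that replicate 2 stood apart on that list, and its neutrophil sum was 1186 CPM against 2979.6 and 602. On the sham side, replicate 1 was the highest of the 3 libraries for all 9 genes. Without treated replicate 1 the members' fitted changes shifted upward, to 0.01 for both Ccr7 and Tcf7, -0.07 for Klf2 and 0.43 for Foxo1, with -0.60 for Il7r. Why this library differed was not tested.

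**Figure D4:**
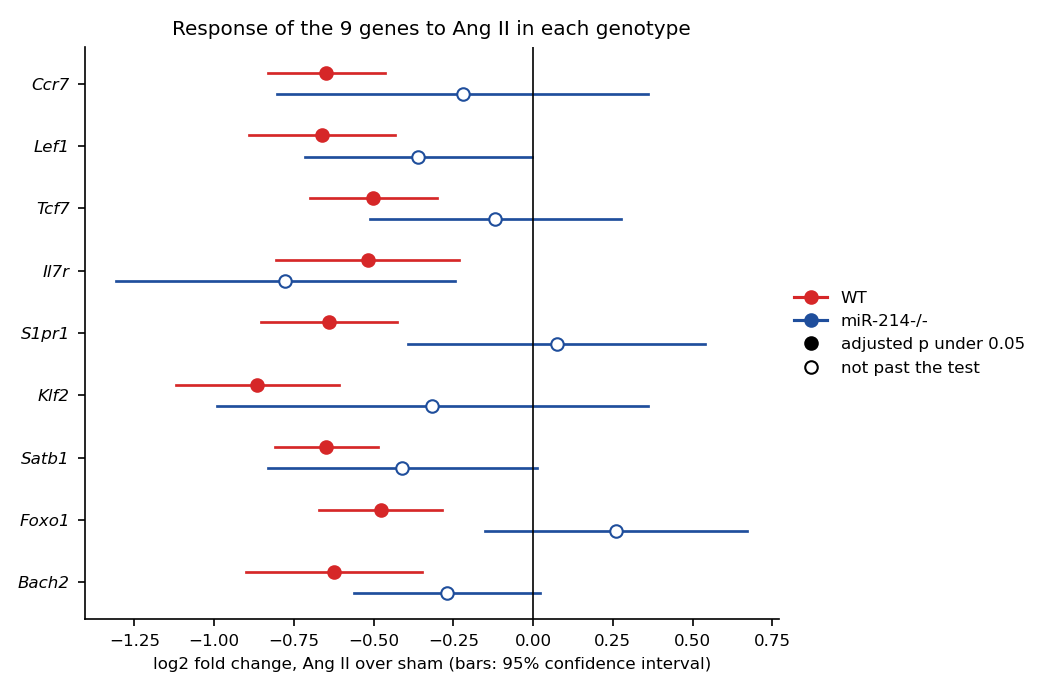
log2 fold change of each gene, Ang II over sham (horizontal axis), in WT (red) and miR-214-/- mice (blue). Points are fitted values, bars 95% confidence intervals, and filled points passed at an adjusted p under 0.05. All 9 points are filled in WT and none in miR-214-/-, where the intervals are wider and overlap those of WT for all genes but S1pr1 and Foxo1.

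Relative to the T cell markers, the miR-214-/- changes were -0.73 for Il7r (95% interval -1.07 to -0.39, adjusted p 0.462, edgeR) and between -0.37 and 0.30 for the others, none of which passed. The ratio of the members' sum to the T marker sum was 1.22, 1.17 and 1.12 in miR-214-/- sham. In miR-214-/- Ang II it was 0.903, 1.02 and 1.09, without overlap. Il7r made up a large part of this fall. Its mean went from 1181 CPM in sham to 688 CPM after Ang II, and the mean members' sum from 5719 to 4710 CPM. The members' sums were 6480, 5555 and 5122 CPM in sham and 3503, 5222 and 5404 CPM after Ang II. Treated replicates 2 and 3 thus lay within the sham range of that sum, and replicate 1 below it. S1pr1 (0.11) and Foxo1 (0.30) had positive fitted changes under this scaling, so the lower ratio was not a fall of every member. How often other gene sets separate in this way was not tested.

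Between the sham groups, none of the 9 genes differed by genotype at an adjusted p under 0.05. Of 15913 genes 4 passed (0.0251%), 1061 had an unadjusted p under 0.05 and DESeq2 called 94, without a member. Foxo1, which holds seed matches for both arms of miR-214, was lower in every miR-214-/- library than in every WT library, at 304, 262 and 273 CPM against 342, 330.4 and 389.7 CPM. This was 1 of 9 members, and 4.79% of all genes tested were lower in the same way. Of the members 0 were higher in every miR-214-/- library, against 5.39% of all genes. Its log2 fold change was -0.34 ± 0.09, with an unadjusted p of 0.00546 and an adjusted p of 0.701 (edgeR). Il7r, which holds 2 matches for miR-214-3p, tended the other way, at 1386, 1222 and 936 CPM in miR-214-/- against 847, 1013 and 815 CPM in WT (0.40 ± 0.16, adjusted p 0.715, edgeR), and the libraries overlapped. Ccr7, the third gene with a match for miR-214-3p, had a log2 fold change of -0.06 (95% interval -0.36 to 0.24). The other 6 genes lay between -0.28 for Klf2 and 0.14 for Satb1, and in each of them the groups overlapped. The 3 genes with a match for miR-214-3p thus had fitted differences of both signs. Relative to the T cell markers, the 9 differences lay between -0.18 for Foxo1 (adjusted p 0.416, edgeR) and 0.55 for Il7r (adjusted p 0.415, edgeR). None of the 9 passed under that scaling either.

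Under Ang II all 9 fitted differences were positive, that is, higher in miR-214-/- than in WT, but none passed and neither did any of 16215 genes by edgeR (0.0%). At an unadjusted p under 0.05 there were 1388 genes, 5 of the 9 members among them, and DESeq2 called 33 genes and 0 members. The members' log2 fold changes ran from 0.17 for Il7r to 0.55 for S1pr1, with a median of 0.39 against 0.00 for all genes, and the smallest adjusted p was 0.569. Tcf7 alone was higher in every miR-214-/- library (1114, 1449 and 1549 CPM) than in every WT library (997, 1105 and 1016 CPM), with a log2 fold change of 0.40. Of all genes tested, 8.01% were higher in the same way and 5.94% were lower in every miR-214-/- library, the latter with 0 members. S1pr1 measured 348, 553 and 587 CPM against 322, 355 and 341 CPM, so that 2 of 3 miR-214-/- libraries were above all WT libraries and replicate 1 was not. Relative to the T cell markers the differences shrank to between -0.17 and 0.21, and those of Il7r (-0.17) and Klf2 (-0.04) became negative.

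Whether the response to Ang II differed between the genotypes was tested by an interaction term over all 12 libraries, where a positive value means a weaker fall or a larger rise in miR-214-/-. No member passed with edgeR. Of 16770 genes 1 passed (0.00596%), 2483 had an unadjusted p under 0.05, and DESeq2 called 444 genes, among them 1 member, Foxo1 (adjusted p 0.0395). Foxo1 had the largest value, 0.76 ± 0.21 on the log2 scale (unadjusted p 0.00392, adjusted p 0.213, edgeR), followed by S1pr1 at 0.73 ± 0.23 (unadjusted p 0.00967, adjusted p 0.237, edgeR). Klf2 (0.57), Ccr7 (0.45), Tcf7 (0.40), Bach2 (0.37), Lef1 (0.32) and Satb1 (0.26) were positive with adjusted p between 0.348 and 0.551. Il7r alone had a negative value, -0.24 (95% interval -0.85 to 0.36), its fitted fall being -0.78 in miR-214-/- and -0.52 in WT.

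Leaving out a single library changed these calls. Without miR-214-/- Ang II replicate 1, 919 genes passed for the interaction, and Foxo1 and S1pr1 passed with values of 0.93 each and an adjusted p of 0.0122 (edgeR). The remaining 7 members did not pass in that fit. Relative to the T cell markers the interaction was 0.26 for Foxo1 (adjusted p 0.257) and 0.25 for S1pr1 (adjusted p 0.380), while that of Il7r was -0.72 (95% interval -1.18 to -0.26, adjusted p 0.0758, edgeR). Under that scaling Il7r passed without miR-214-/- Ang II replicate 1 (-0.63, adjusted p 0.0465).

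Across the 12 libraries the 9 genes moved much together. The Pearson correlation of log2 CPM ranged from 0.31, between Il7r and Foxo1, to 0.97, between Lef1 and Satb1, and Ccr7 and Klf2 reached 0.95. The 4 lowest of the 36 pairs all involved Foxo1. These are descriptions over 12 libraries that fall into the same 4 groups and differ in their makeup of cells, with T cell marker sums from 3387 to 5929 CPM and red-cell precursor sums from 271 to 5355 CPM. The part of that makeup in the correlations was not tested. Of 9756 genes with a mean log2 CPM above 3, those most like the mean of the 9 genes were Pias1 (r = 0.986), Siah1a (0.985), Cdc42se2 (0.983), Gimap9 (0.983) and Znrf2 (0.981). For single members the most similar genes were Cyth1 for Ccr7 (0.976), Gimap9 for Lef1 (0.982), Smurf1 for Tcf7 (0.974), Crlf3 for Il7r (0.960), Atp1b1 for S1pr1 (0.968), Ubash3a for Klf2 (0.970), Usp3 for Satb1 (0.973), Pafah1b1 for Foxo1 (0.943) and Wipf2 for Bach2 (0.958). The 20 other naive and quiescence genes had correlations with the mean from -0.18 for Foxo3 to 0.959 for Foxp1, with a median of 0.794. The 12 general T cell markers ran from 0.674 for Thy1 to 0.952 for Cd247, with a median of 0.906, and the 15 cell cycle genes from -0.93 to -0.85.

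Because FOXO1 and TCF-1 are themselves members and bind DNA, the members' promoters, from 250 bases before to 50 after each annotated start in RefSeq (GRCm38), were searched on both strands for a core motif of each. RefSeq promoters of 7 members were used, 15 starts in all. The promoter set held no entry for Ccr7 and S1pr1, so these genes were not searched. The forkhead motif GTAAACA was found in 1 of 15 (6.67%) against 3.65% of 32851 promoters of all genes, and the TCF and LEF motif CTTTGAT in 0 of 15 against 3.73%. These motifs do not overlap each other in their letters. The single match lies at an alternative start of Tcf7 and is shown in capitals, read along the minus strand.
Tcf7, chr11:52282563-52282619, minus strand: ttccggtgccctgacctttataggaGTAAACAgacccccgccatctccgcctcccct
At these shares, 15 starts of 7 genes are too few to tell whether the members differ from other genes.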

How the data were processed

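RNASeq of splenic T cells was measured in 12 libraries of 4 groups, 3 mice each. The authors captured mRNA with oligo(dT), trimmed paired reads with Trimmomatic, mapped them to GRCm38 with STAR, counted unique exonic reads per gene with featureCounts (Subread 1.5.2) and deposited raw counts without normalization. Genes with near-identical copies may therefore be undercounted. The strand setting and annotation release are not given in the sources used here. Library totals were 21126874 to 29605988 counts. Of 12 pairs of replicates, 0 were identical.

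Groups were taken from the labels. Of 49315 identifiers, 48970 matched a symbol in GENCODE M21. Differences were tested on the counts with edgeR 4.0.16 in R 4.3.3 (filterByExpr on the groups compared, TMM, glmQLFit and glmQLFTest at their defaults, Benjamini-Hochberg adjustment over all genes tested), and a gene passed at an adjusted p under 0.05. The 4 comparisons of 2 groups used their 6 libraries alone, and the interaction used all 12. Correlations used log2 CPM with a prior count of 2. Other counts came from DESeq2 1.42.0 (the study's tool), and from other scalings, among them 1 that sets the T cell markers equal between libraries. Figures and summaries were made in Python with pandas 2.3.3 and matplotlib 3.10.9.

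The members and the gene lists were chosen with earlier results of these data known. The text names all members, at most 4 genes of each other list and comparison that passed, those of smallest adjusted p first, and the genes whose pattern over the 12 libraries was most like the members (the top 5 for the mean of the members and the top 1 for each). Klra8, the deleted gene and genes overlapping members were named beside this rule. So were Foxo3, Foxp1, Thy1 and Cd247, as the ends of ranges of likeness. Ahsp of the red-cell list was not matched.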

Additional observations from a re-analysis of the deposited data

How the results depend on the processing

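In WT, all 9 members passed under DESeq2, RLE or library size scaling, no low-count filter, an adjusted-deviance fit and the replicate number as a block, and 8 passed in one fit over all groups, where Il7r was lost (adjusted p 0.0729). Scaling to T cell markers left 1 member among 7883 genes past the test and turned Tcf7 (0.0082) and Foxo1 (0.0348) positive. Requiring a log2 fold change over 1 left 0 members and 1169 genes. Leaving out 1 library gave 6 to 9 members and 946 to 3590 genes. Under the T cell scaling, leaving out libraries, an alternative chosen after seeing the data, gave 0 to 1 members.

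In miR-214-/- mice DESeq2 called 1 member and 277 genes, the fit without a filter called 5 genes, and leaving out a library called 0 to 1 genes. Fitted changes without 1 library ranged from -0.40 to 0.00917 for Ccr7, from -0.22 to 0.00564 for Tcf7 and from -0.0674 to 0.27 for S1pr1.

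Between the sham groups DESeq2 called 94 genes, the fit without a filter 9, the block 0 and one fit over all groups 0, and leaving out a library gave 0 to 35. Members near 0 changed sign, namely Tcf7 (0.0245) and Bach2 (0.0154) under library size scaling, Ccr7 (0.0942), Tcf7 (0.16) and Bach2 (0.15) under T cell scaling, and Tcf7 (0.00959) without a filter. Leaving out 1 library gave -0.21 to 0.0369 for Ccr7, -0.00593 to 0.14 for Lef1, -0.0841 to 0.0395 for Tcf7 and -0.10 to 0.12 for Bach2. Between the Ang II groups DESeq2 called 33 genes, one fit over all groups 1 and leaving out a library 0 to 1, and T cell scaling turned Il7r (-0.17) and Klf2 (-0.0441) negative.

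For the interaction DESeq2 called 1 member and 444 genes, T cell scaling 0 genes and a red-cell covariate 0 genes. Leaving out 1 library gave 0 to 2 members and 0 to 919 genes, and 0 to 1 members under T cell scaling. That scaling turned Ccr7 (-0.0445), Lef1 (-0.16), Tcf7 (-0.0800), Satb1 (-0.23) and Bach2 (-0.12) negative. Apart from the scalings, the construction of these settings does not show why counts moved, and the cause was not tested.

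Replicate numbers are shared between groups, but deviations of same-numbered libraries from their group means correlated between -0.56 and 0.20, and 3 of 6 libraries in WT, 0 in miR-214-/-, 2 in sham and 0 in Ang II correlated best with their own number. The block changed no member's call, and 2381 genes passed in WT with it. With 3 mice per group, changes in miR-214-/- as large as those in WT were within the members' 95% intervals except for S1pr1, Foxo1 and Bach2.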
